A study of Mus musculus with 4 samples.

Results

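The genes described here are 9 markers of mural cells, the pericytes and smooth muscle cells that wrap blood vessels, in mouse tendon. They are Acta2, Tagln, Myh11, Pdgfrb, Rgs5, Cspg4, Higd1b, Notch3 and Mcam, chosen by name from 22180 genes that had a probe set with exactly 1 gene symbol in the platform annotation. Each gene is represented by its probe set with the highest mean over the 4 arrays; Rgs5 had 2 probe sets and the other 8 genes had 1 each. Plantarflexor tendons (Achilles and plantaris) came from untreated wild-type C57Bl/6 mice aged 4 months, 2 samples from males and 2 from females, with no transgene or treatment in any group. The samples are called male 1, male 2, female 1 and female 2. The labels give tenocytes as the cell type, but the RNA came from homogenized whole tendon, so vessels, muscle and blood-borne cells could all contribute. The protocol speaks of the tendons of each animal, but the labels do not say whether a sample is 1 animal or which samples share one, so p-values cover only how far these samples spread, which could be technical.

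Pericytes sit on capillaries under the basement membrane, while smooth muscle cells ring arterioles and venules and contract to set vessel width. Endothelial cells recruit both by releasing PDGF-B, which acts on the receptor PDGFR-beta, and Notch signals from the endothelium help mural cells to mature. Smooth muscle cells carry contractile proteins that depend on serum response factor, a transcription factor that binds CArG boxes in DNA, and pericytes are usually recognised by a set of markers rather than by any single gene. Several of these genes are also active in other cells: Acta2 and Tagln in activated fibroblasts, Pdgfrb in fibroblasts, and Mcam in endothelium.

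RefSeq promoter windows (GRCm38.p6) were matched for 5 of the 9 genes: Acta2, Rgs5, Cspg4, Notch3 and Mcam. A CArG box with at most 1 G or C among its 6 central bases was searched for in the 250 bases before each start; the motif is its own reverse complement, so a search of one strand covers both. Such a match was present in 8.59% of 32851 windows of this length. Acta2 held 2 matches, beginning 84 and 34 bases before the RefSeq start, and the other 4 genes held 0. A stricter box, with all 6 central bases A or T, was present in 1.47% of windows, and each of the 5 genes held 0. The last 130 bases before the start are printed for Acta2, a contractile gene with matches, and for Rgs5, a pericyte gene without one, with the matches in capitals. The Acta2 stretch is chr19:34255374-34255503 on the minus strand, and the Rgs5 stretch is chr1:169655371-169655500 on the plus strand.
Acta2: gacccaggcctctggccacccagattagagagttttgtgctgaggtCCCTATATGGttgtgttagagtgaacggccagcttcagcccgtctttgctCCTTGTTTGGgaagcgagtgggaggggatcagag
Rgs5: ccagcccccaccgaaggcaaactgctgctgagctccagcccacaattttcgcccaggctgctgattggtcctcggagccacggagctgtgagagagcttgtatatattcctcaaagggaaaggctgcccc
The short motif TGGGAA, the core bound by the Notch effector RBPJ, was present on either strand in 21.6% of windows. Among the 5 genes it occurred in Acta2 alone, once, where it overlaps the second CArG match. A match describes letters in this window and is not a shown binding site.

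All 9 genes gave signal above the median of every array on all 4 arrays, which held for 41.6% of the 23521 probe sets tested. Higd1b in female 2 came closest to that line, at 2.61 against a highest array median of 2.47. Values are log2 units of the deposited RMA table, and because probes differ in brightness each gene is compared only with itself across arrays. The sexes of the arrays were borne out by Xist, which was at 2.47 and 1.98 in males and at 7.34 and 8.04 in females, and by the Y-linked gene Eif2s3y, at 4.46 and 4.96 in males and at 2.86 and 1.65 in females. Of the tendon cell list, 7 of 8 genes lay above every array's median on all arrays, among them Tnmd between 4.39 and 5.06 and Scx between 3.18 and 3.58. All 12 skeletal muscle genes did so too. In such bulk tissue, fewer mural cells and less of a transcript per cell cannot be told apart.

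**Figure D1:**
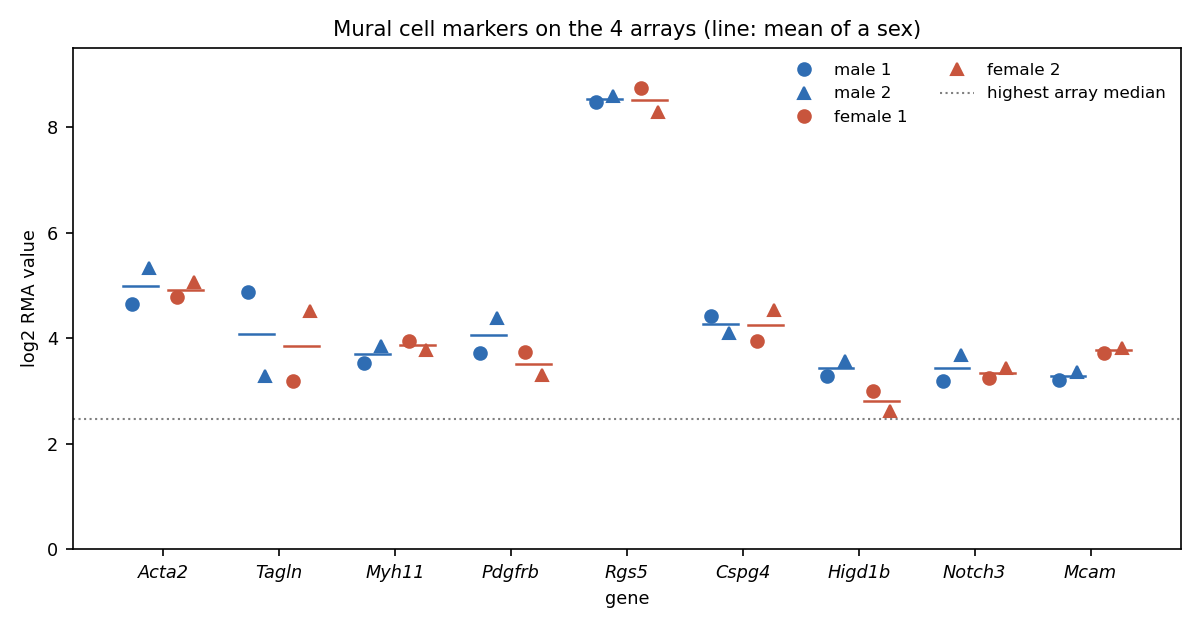
Log2 RMA value (vertical axis) of each mural marker gene (horizontal axis) on the 4 arrays; blue points are males, red points are females, short lines are the means of each sex and the dotted line is the highest array median, 2.47. Tagln spans 1.68 log2 units over the 4 arrays, and the groups of Higd1b and Mcam do not overlap; heights of different genes are not comparable.

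The contractile genes came first, because they define smooth muscle. Acta2, smooth muscle alpha-actin, was at 4.65 in male 1, 5.32 in male 2, 4.78 in female 1 and 5.05 in female 2. Male 2 was highest and male 1 lowest, so the females lay inside the range of the males, and the difference (female minus male) was -0.06 (SE 0.28, 95% interval -0.82 to 0.69). Myh11, the smooth muscle myosin heavy chain, was at 3.52, 3.85, 3.94 and 3.78 in male 1, male 2, female 1 and female 2. It was the steadiest of the 9 genes, with an SD over the 4 arrays of 0.18 against a median of 0.20 over all probe sets tested. Its difference was 0.17 (SE 0.19).

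Tagln, the actin-binding protein transgelin, split the arrays across sex. It was at 4.87 in male 1 and 4.51 in female 2, but at 3.29 in male 2 and 3.19 in female 1. Male 1 exceeded male 2 by 1.58, and female 1 was below female 2 (-1.32), while the sexes differed by only -0.23 (SE 0.71, 95% interval -2.12 to 1.67). Its SD over the 4 arrays, 0.85, was larger than that of 97.9% of probe sets tested. Without male 1 the Tagln difference was 0.56, and without female 1 it was 0.43.

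The other contractile genes of the vessel wall were read from a list of 16, all measured, of which 11 lay above every array's median on all arrays. Limma called 0 of them in either direction; 7 were lower and 9 higher in females, with a median difference of 0.02. The 3 widest differences were Cnn1 (calponin) at -0.48 (SE 0.21), Synpo2 (an actin-binding protein) at 0.41 (SE 0.31) and Myl9 (the regulatory myosin light chain of smooth muscle) at -0.34 (SE 0.28). Cnn1 lay between 1.83 and 2.64, around the array medians, so no difference is read from it. In female 1 Myl9 was at 3.48, against 4.14 to 4.21 on the remaining arrays. Srf, which encodes serum response factor, was at 3.15 in male 1, 4.38 in male 2, 4.22 in female 1 and 3.83 in female 2, so its lowest and highest arrays were those of Acta2.

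Close relatives of the contractile genes were examined because similar transcripts can bind one another's probes. Acta1, the skeletal muscle actin, was at 11.09, 11.20, 11.34 and 11.09 in male 1, male 2, female 1 and female 2, so its range of 0.25 was narrower than the 0.67 of Acta2. Actg2, the enteric smooth muscle actin, stayed between 1.29 and 1.72, below every array's median. Actc1, the cardiac actin, was highest in female 1, at 4.79 against 3.37 to 3.76. The Tagln relative Tagln2 was at 8.75, 8.27, 7.14 and 8.40, lowest in female 1 as Tagln was, but its other probe set was at 5.98, 4.61, 5.45 and 5.68, lowest in male 2. Of the other myosin heavy chains set beside Myh11, the skeletal Myh4 was at 7.35 in female 2 against 10.20 to 10.61, and the slow fibre Myh7 ran from 6.99 to 9.07. The non-muscle Myh9 ran from 4.65 to 5.67 and Myh10 from 3.82 to 5.23. How much of the Acta2, Tagln or Myh11 signal came from such relatives was not tested.

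The receptors of mural cells were Pdgfrb and Notch3. Pdgfrb, the receptor through which PDGF-B attracts pericytes, was at 3.72 in male 1, 4.39 in male 2, 3.73 in female 1 and 3.30 in female 2. Male 2 was high and female 2 low, while male 1 and female 1 were nearly equal, so the groups overlapped. The difference was -0.54 (SE 0.30, 95% interval -1.35 to 0.27), and the gap between the males, 0.67 in size, was larger. Notch3, the Notch receptor of vascular smooth muscle, was at 3.19, 3.67, 3.24 and 3.44 in male 1, male 2, female 1 and female 2. Its difference was -0.09 (SE 0.22), with both females inside the range of the males.

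Ligands and pathway partners of these receptors did not pass the test either. Limma called 0 of 5 PDGF ligands and receptors other than Pdgfrb, with 1 lower and 4 higher in females and a median difference of 0.005. Pdgfb, which encodes the ligand, was at 2.66, 2.77, 2.66 and 2.77 in male 1, male 2, female 1 and female 2, close to the array medians. Pdgfra, the fibroblast receptor of the family, had the widest difference at 0.74 (SE 0.42) and was highest in female 2 at 5.13, the array where Pdgfrb was lowest. Pdgfc was at 0.39 (SE 0.26) and Pdgfa at 0.005 (SE 0.16). In the Notch pathway 0 of 13 genes were called, with 7 lower and 6 higher and a median difference of -0.02. The widest were Rbpj, the DNA-binding effector, at 0.53 (SE 0.30), Heyl, a Notch target of smooth muscle, at -0.51 (SE 0.26) and Notch1 at -0.325 (SE 0.22). Heyl and Notch1 each had a female mean close to the array medians or below them.

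Rgs5 and Higd1b are used as pericyte markers, and Cspg4 and Mcam encode surface proteins of mural cells. Rgs5, which speeds the shut-off of G protein signals, was at 8.48 in male 1, 8.59 in male 2, 8.75 in female 1 and 8.30 in female 2. The difference was -0.01 (SE 0.21, 95% interval -0.58 to 0.55), so the interval allows a shift of up to 0.58 in size. Its other probe set, 17219139, was at 7.05, 7.88, 7.59 and 7.65, with male 1 low, and its difference was 0.15 (SE 0.32). The 2 Rgs5 probe sets ordered the arrays the same way in 3 of 6 array pairs, so they do not give one pattern for this gene. Its relative Rgs4 was at 3.54, 2.69, 1.95 and 2.34.

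Cspg4, the NG2 proteoglycan, was at 4.42 in male 1, 4.10 in male 2, 3.95 in female 1 and 4.54 in female 2. As with Tagln, male 1 and female 2 were above male 2 and female 1, and the difference between the sexes was -0.02 (SE 0.27).

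Higd1b and Mcam were the 2 genes whose groups did not overlap, and they went opposite ways. Higd1b, a small protein of the hypoxia-inducible HIG1 family, was at 3.28 and 3.56 in males and at 2.99 and 2.61 in females. Both females were below both males, with means of 3.42 ± 0.20 (SD, n = 2) and 2.80 ± 0.27 (SD, n = 2). The difference was -0.62 (SE 0.21, 95% interval -1.19 to -0.06), or 0.649 of the male level, and limma's adjusted p over all probe sets was 0.969. Its family member Higd1a, expressed in many tissues, was at 5.61, 6.14, 5.60 and 5.54, highest in male 2 and lowest in female 2 as Higd1b was.

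Mcam, the adhesion molecule CD146, was at 3.21 and 3.35 in males and at 3.72 and 3.82 in females. Both females were above both males, with means of 3.28 ± 0.10 (SD, n = 2) and 3.77 ± 0.07 (SD, n = 2). The difference was 0.49 (SE 0.15, 95% interval 0.08 to 0.90), or 1.40-fold, again with a limma adjusted p of 0.969. Because the groups of neither gene overlap, leaving out any single array could not turn the sign. The Mcam difference then ran between 0.41 and 0.56, and that of Higd1b between -0.81 and -0.43. The intervals are those of single genes and are not widened for the number of genes tested.

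**Figure D2:**
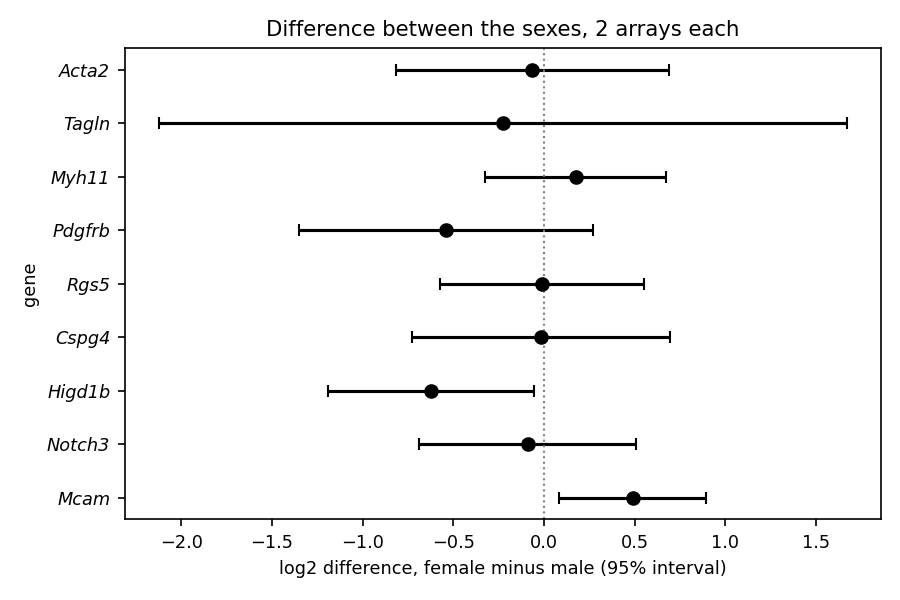
Difference in log2 RMA value, female minus male (horizontal axis), for each mural marker gene (vertical axis); points are limma estimates from 2 arrays per sex and bars are unadjusted 95% intervals. Higd1b (-0.62) and Mcam (0.49) have intervals that leave out 0, and Tagln has the widest, from -2.12 to 1.67.

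Limma with Benjamini-Hochberg adjustment called 0 of the 9 genes, against a background of 0% (0 of 23521 probe sets). The lowest adjusted p among the 9 was 0.969. Even Xist, with a difference of 5.47, had an adjusted p of 0.772 by limma, so a miss here says little about a gene with a smaller difference. At an unadjusted p under 0.05 there were 2 of 9, Higd1b and Mcam, where the background was 4.49%; with a trended and robust prior there were 0. Groups did not overlap for 2 of 9 genes, against 33.3% of all probe sets. An exact permutation test of 2 arrays against 2 cannot go below p = 0.333, the value reached by Higd1b and Mcam. The female mean was below the male mean for 7 of 9 genes, against 51.2% of all probe sets, and the median difference was -0.06, against -0.0062 over all. That count rested on single arrays: it was 3 of 9 without female 1 and 4 of 9 without male 2. The median was 0.07 without female 1, 0.05 without male 2 and -0.20 without female 2. For 7 of 9 genes the wider gap between 2 arrays of the same sex exceeded the difference between the sexes. The exceptions, Higd1b and Mcam, add nothing to the overlap count, because such a gene cannot have overlapping groups. The share over all probe sets was not computed. Gaps between single arrays also vary more than differences of means, so nothing particular to the 9 genes is read from the 7 of 9. Median gaps of the 9 genes were 0.33 in males and 0.38 in females, against a median sex difference of 0.17 in size. Over all probe sets these medians were 0.21, 0.21 and 0.15.

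A further 14 pericyte genes were listed, of which 13 were measured (Ednra had no probe set of its own symbol) and 9 lay above every array's median on all arrays. Limma called 0, with 6 lower and 7 higher in females and a median difference of 0.12. The widest were Ndufa4l2, a mitochondrial protein induced in hypoxia, at 0.78 (SE 0.73), Gucy1a1, a subunit of the nitric oxide receptor guanylate cyclase, at 0.755 (SE 0.26), and Anpep, the surface aminopeptidase CD13, at 0.64 (SE 0.72). Cox4i2 was nearly as wide in the other direction, at -0.63 (SE 0.26), with no overlap between the sexes. Female 2 stood apart for Ndufa4l2, at 7.42 against 5.33 to 5.79 on the remaining arrays, and for Anpep, at 5.72 against 3.73 to 4.38. Gucy1a1 was at 3.21, 2.97, 3.54 and 4.16 in male 1, male 2, female 1 and female 2, with no overlap between the sexes (limma adjusted p = 0.969). Kcnj8 and Abcc9, the pore and regulatory subunits of a potassium channel of pericytes, were at -0.04 (SE 0.17) and -0.35 (SE 0.60). Abcc9, which skeletal muscle also expresses, was lowest in female 2, at 5.74 against 6.78 to 7.44. The median of this list was 0.03 after further quantile normalization and lay between 0.07 and 0.25 when each array was left out in turn.

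Whether the 9 genes varied together was described by taking every pair of genes and every pair of arrays and asking if both genes ranked the 2 arrays the same way. Of 216 such comparisons, 108 (50.0%) went the same way, and the share over all pairs of tested probe sets was also 50.0%. The latter lies at about this value wherever neither of 2 arrays is higher for most probe sets, so it serves as a reference only. With 4 arrays no correlation between genes was computed. Among the 36 pairs of genes, 1 pair agreed in 6 of 6 array pairs, 4 pairs in 5, and 2 pairs in 0. The 4 pairs were Pdgfrb with Higd1b, Tagln with Cspg4, Myh11 with Rgs5 and Pdgfrb with Rgs5. Counts with Rgs5 use its probe set with the highest mean, which ordered the arrays differently from the other. The 9 genes thus had no shared order of the arrays, and the patterns below are descriptions of the same 4 arrays, with no test. The pairs described below were picked because they agreed. How often other pairs of probe sets reach such counts was not computed, so no link between 2 genes is read from them.

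**Figure D3:**
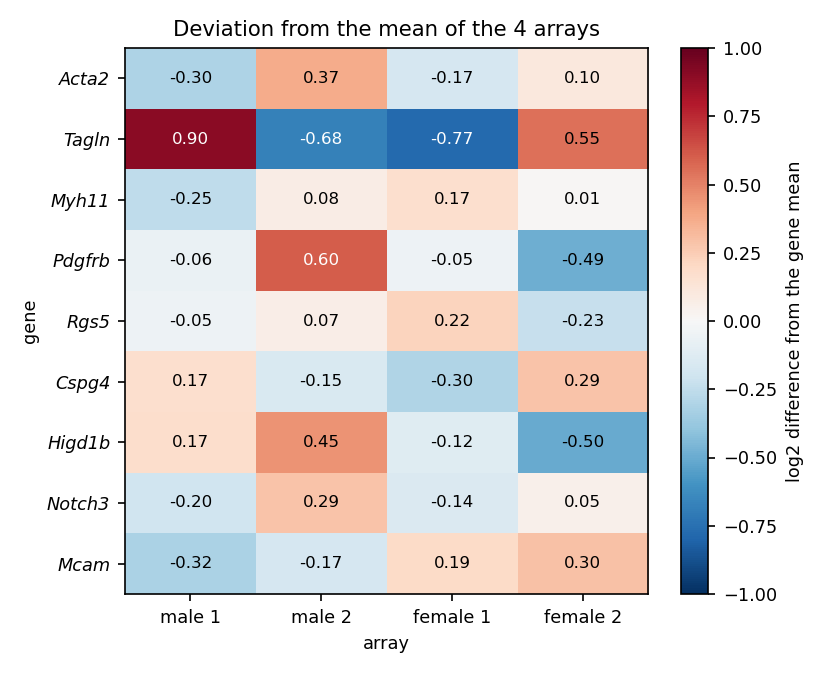
Deviation of each array (horizontal axis) from the gene's own mean over the 4 arrays, in log2 units (colour and printed value), for the 9 mural markers (vertical axis). Acta2 and Notch3 rank the arrays alike throughout, and Tagln has the widest deviations; in each array some genes lie above and others below their mean.

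Acta2 and Notch3 were the pair that agreed throughout: both ran from male 1, the lowest, through female 1 and female 2 to male 2, the highest. Their deviations differed by a root mean square of 0.07, the smallest distance of any pair. The same order was found in 3.95% of all probe sets, and it was also that of the second Rgs5 probe set. Male 1 was the lowest array for 4 of 9 genes (Acta2, Myh11, Notch3 and Mcam), against 26.6% of all probe sets, and male 2 was the highest for 4 of 9 (Acta2, Pdgfrb, Higd1b and Notch3), against 23.2%. Endothelial markers were low in male 1 as well: it was the lowest array for 8 of 12, and the median deviations were -0.37, 0.22, -0.04 and 0.34 in male 1, male 2, female 1 and female 2. Emcn, a sialomucin of capillary and venous endothelium, was at 2.31 in male 1 against 4.70 to 5.12. Cldn5 and Robo4 of the same list went the other way and were highest in male 1. Cldn5 was at 4.53 there against 3.165 to 3.79, and Robo4 at 4.03 against 2.80 to 4.02. The summed log2 level of the 12 endothelial genes was 45.4 and 53.0 in males and 49.7 and 54.3 in females. The part of vessel content in the Acta2 and Notch3 pattern was not tested.

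Pdgfrb and Higd1b agreed in 5 of 6 array pairs, both highest in male 2 and lowest in female 2, with deviations in female 2 of -0.49 and -0.50. Female 2 was also the array where macrophage markers were high and most muscle genes low. The median deviation there was 0.85 for 7 macrophage genes, of which 7 lay above their own mean, and -0.26 for 12 skeletal muscle genes, of which 2 did. Summed log2 levels of the macrophage genes were 27.4 and 27.9 in males and 28.3 and 35.8 in females. Those of the muscle genes were 119.1 and 119.0 in males and 119.8 and 108.5 in females. The fall was widest in Mybpc2, Actn3 and Myh4, at 6.20, 6.68 and 7.35 in female 2. Their values on the remaining arrays were at least 8.62, 9.41 and 10.20, so the lower sum rests mostly on them. Acta1 was at 11.09 in female 2, close to its mean of 11.18, and Myh7 lay above its mean. The part of either cell type in the Pdgfrb and Higd1b values was not tested.

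Tagln and Cspg4 agreed in 5 of 6 array pairs, both high in male 1 and female 2 and lowest in female 1. Each ran against another member: Tagln and Myh11, and Cspg4 and the Rgs5 probe set with the highest mean, agreed in 0 of 6. The other Rgs5 probe set did not run against Cspg4 throughout, as both were lower in female 1 than in female 2. Fibroblast markers were likewise higher in male 1 and female 2, with median deviations of 0.12 in male 1, -0.425 in male 2, -0.23 in female 1 and 0.52 in female 2, and 4 of 6 and 5 of 6 genes above their own mean in male 1 and female 2. Their summed log2 levels were 35.0 and 31.5 in males and 31.8 and 36.6 in females. The fibroblast genes included Dpt, which encodes dermatopontin, highest in male 1 and between 7.38 and 7.89 otherwise, and Pi16 and Pdgfra, both highest in female 2. The median of the 8 tendon cell genes moved in the same way, with deviations of 0.16, -0.09, -0.255 and 0.19 in male 1, male 2, female 1 and female 2. In that order 5, 2, 1 and 7 genes lay above their own mean. Single genes differed: Tnmd was lowest in female 2, and Kera and Thbs4 were lowest in male 1. Summed log2 levels of the tendon cell genes were 45.8 and 44.5 in males and 42.7 and 47.6 in females. Whether fibroblast or tendon cell RNA took part in the Tagln and Cspg4 values was not tested.

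The same count gave 64.9% for the 12 endothelial genes, 61.6% for skeletal muscle, 66.7% for macrophage and 73.3% for fibroblast genes, but 48.3% for the contractile list and 49.4% for the pericyte list. It was 56.0% for tendon cell, 55.6% for Schwann cell, 53.7% for vessel recruitment, 53.3% for PDGF and 47.0% for Notch pathway genes. For 367 genes that had exactly 2 probe sets above the array medians (3 more, whose probe sets held the same values, were left out), the 2 probe sets of a gene ordered the arrays the same way in 62.4% of comparisons, which shows how far a single gene repeats itself on these arrays. The differences between these shares were not tested, and all of them come from the same 4 arrays.

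**Figure D4:**
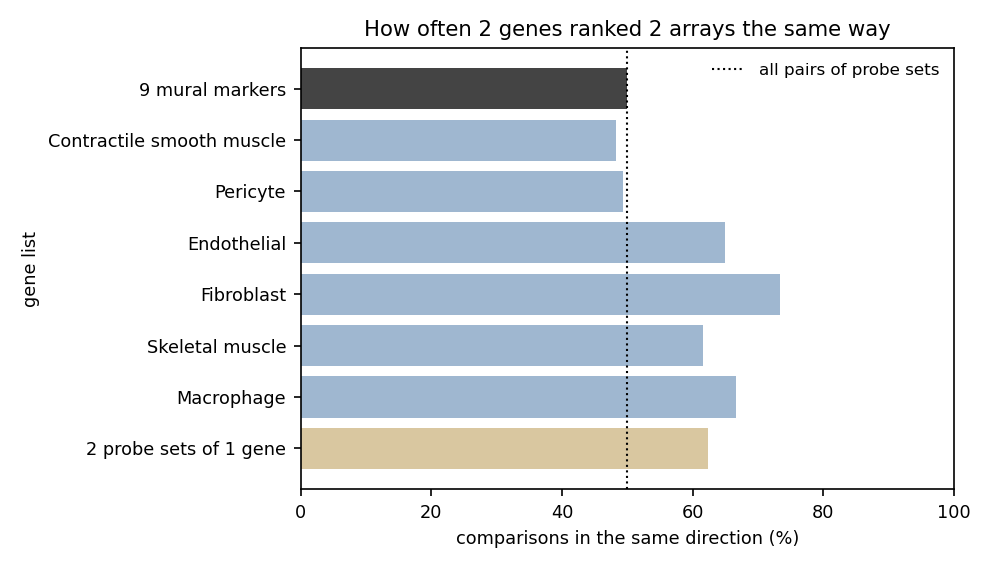
Percentage of comparisons (horizontal axis) in which 2 genes of a list ranked 2 arrays in the same direction, for the 9 mural markers, 6 of the other gene lists and pairs of probe sets of 1 gene (vertical axis). The mural markers lie at 50.0%, on the dotted line for all pairs of probe sets, and the fibroblast genes lie highest at 73.3%.

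The median profile of the 9 genes was nearly flat, with deviations of -0.06, 0.08, -0.12 and 0.05 in male 1, male 2, female 1 and female 2. The 5 genes nearest to it by root mean square distance over the 4 arrays, out of 10666 probe sets whose mean over the 4 arrays lay above the highest array median (predicted genes and the like left out), were Syp, Zbtb46, Ankrd29, Commd5 and Myzap, at distances between 0.017 and 0.023. The nearest member, Notch3, was at 0.12, and 1280 of those probe sets lay as near or nearer; for Tagln, the farthest at 0.74, 10251 did. A median over genes that go both ways is flat by construction, so these distances mainly follow each gene's own spread.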

How the data were processed

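The authors deposited log2 RMA values for 4 arrays of a Mouse Gene ST strip; oligo and RMA are named per the submitters' processing notes. Versions, summary level and build are not given in the sources used here. That the scale is log2 was read from the range, 0.52 to 11.93. No depth exists for arrays, and their number limits the precision. Of 41345 rows, 23521 had exactly 1 symbol, 1814 had several and 16010 had none in GEO's platform annotation; the first were tested. Gucy1a3 and Gucy1b3 were updated to Gucy1a1 and Gucy1b1 through RefSeq synonyms.

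Female minus male was fitted with limma 3.58.1 (lmFit, eBayes) in R 4.3.3, with sex as the only term and Benjamini-Hochberg adjustment over all probe sets tested (threshold 0.05). The procedure was tested on simulated data. Figures used matplotlib 3.10.9 in Python 3.11.15. The members and lists were chosen with earlier results of these data known. Genes named from a list are its 3 of widest difference. Srf, Kcnj8, Abcc9, Cox4i2, Pdgfb, Robo4, Dpt, Pi16, Tnmd, Scx and Tek were added after their values were seen. Of these, Dpt and Pi16 are also among the 3 of widest difference of the fibroblast list. Alternatives were further quantile normalization, centring, another prior, other row filters, the replicate block, the mean over probe sets and leaving out each array.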

Additional observations from a re-analysis of the deposited data

How the results depend on the processing

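Limma called 0 probe sets, 0 of the 9 markers and 0 list genes under every alternative that kept all arrays. Unadjusted p under 0.05 was met by 472 of 11760 probe sets above the median level and by 1870 of 41345 with all rows kept. These 2 counts differ in the number of probe sets tested. Where all arrays and the same 23521 probe sets were kept, the counts ran from 981 (replicate block) to 1103 (trended and robust prior). With the replicate number as a block, 0 were called and 981 had an unadjusted p under 0.05. The labels do not say that a number pairs a male with a female, and the deviations of same-numbered arrays correlated at -0.064 across probe sets. The main fit used no pairing. A correlation over all probe sets cannot exclude a step shared by same-numbered samples that acts on some of them. With the mean over probe sets Rgs5 was at 0.071, the only change of sign among the 9 genes outside leaving out an array. Leaving out each array in turn gave 3 to 6 markers lower in females and a median from -0.199 (without female 2) to 0.072 (without female 1). Signs turned for Acta2 (-0.40 to 0.27), Tagln (-1.02 to 0.56), Rgs5 (-0.24 to 0.21), Cspg4 (-0.31 to 0.28) and Notch3 (-0.33 to 0.15); fewer samples entered these fits. Pdgfrb (-0.87 to -0.21), Higd1b, Mcam and Myh11 (0.01 to 0.34) kept their sign. For Higd1b and Mcam this was fixed in advance, because their groups do not overlap. The share of comparisons in the same direction was 49.1% after further quantile normalization, 50.0% after centring and 52.8% with the mean over probe sets. Medians and calls of the fixed lists under the alternatives were added after seeing the data; further quantile normalization turned the medians of the vessel recruitment (-0.021) and fibroblast (-0.066) lists. Signal close to the array medians limits Higd1b in females.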

Other observations

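Genes that recruit mural cells and stabilise vessels were measured in 9 of 9 cases, 8 of them above every array's median on all arrays. Limma called 0, with 2 lower and 7 higher in females and a median difference of 0.07, between 0.02 and 0.33 when each array was left out in turn but -0.021 after further quantile normalization. Female 2 was above the gene mean for 8 of 9, and male 1 for 2 of 9. Tgfbr2, a TGF-beta receptor, was at 3.11 in male 1, 3.72 in male 2, 3.76 in female 1 and 5.16 in female 2. Eng, the endothelial co-receptor endoglin, was at 3.37, 4.75, 4.18 and 5.38. Angpt1, the ligand by which mural cells act on the endothelial receptor Tek, was lowest in male 1, at 2.61 against 3.88 to 3.93. Tek itself was at 3.52, 3.78, 3.67 and 3.70, also lowest in male 1. Of 5 Schwann cell genes 3 were measured, and 0 lay above every array's median on all arrays.

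Limma also called 0 genes of the endothelial, skeletal muscle, tendon cell, fibroblast, macrophage and Schwann cell lists. The widest differences were Emcn (1.45), Flt1 (1.08) and Cldn5 (-0.87) among endothelial genes, Mybpc2 (-1.96), Actn3 (-1.79) and Myh4 (-1.76) among muscle genes, and Kera (0.59), Thbs4 (0.51) and Mkx (-0.43) among tendon genes. They were Pi16 (0.91), Pdgfra (0.74) and Dpt (-0.385) for fibroblasts and Cd68 (1.18), C1qa (1.09) and C1qb (1.05) for macrophages. The 3 Schwann cell genes, Sox10, Mbp and Cdh19, lay around or below the array medians.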
